A study of Mus musculus with 8 samples.

Results

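The Schwann cell and myelin genes described here are 8 genes, Mbp, Pmp22, Prx, Mag, Cnp, S100b, Sox10 and Ncam1. They were taken by name from the 21885 named genes of the deposited expression table, and all 8 were found there. RNA sequencing was run on 8 libraries of mouse skin, 4 from skin given MC903 plus phytic acid and 4 from skin given MC903 alone. MC903, or calcipotriol, is an analogue of vitamin D whose use on mouse skin gives an inflammation resembling atopic dermatitis, and phytic acid is the inositol phosphate store of plant seeds. Both groups carry MC903 and no untreated skin was analysed here, so every difference is that of phytic acid on top of MC903. The labels give no body site, strain, sex, age, dose or route, and do not say whether libraries came from separate mice. The p-values therefore measure the spread between these libraries, which may be technical.

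Schwann cells are the glia of peripheral nerve. Myelinating Schwann cells wrap single axons in layers of membrane that are held together by myelin proteins, while non-myelinating Schwann cells hold bundles of thin axons, including the sensory fibres of the skin. The transcription factor Sox10 defines the lineage from the neural crest onwards and is also used by melanocytes, its sister lineage. Sox10 and Egr2 together switch on myelin genes. Several of the 8 genes are also used outside nerve. S100b is made by fat cells and cartilage, Ncam1 by muscle and, in humans, natural killer cells, and Pmp22 by fibroblasts and epithelia. The Mbp gene also gives golli transcripts that immune cells make.

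Promoter sequences are shown for 3 members because Sox10 is itself a member, and Cnp, Prx and Mag are myelin genes of Schwann cells. Each stretch is 200 bases of RefSeq sequence on build GRCm38.p6, from base 250 to base 51 before the annotated start. It lies at chr11:100574689-100574888 on the plus strand for Cnp, at chr7:30914973-30915172 on the minus strand for Mag and at chr7:27499074-27499273 on the plus strand for Prx. Capitals mark the letters ACAAAG, the core that SOX factors recognise, or CTTTGT where it lies on the other strand.
Cnp: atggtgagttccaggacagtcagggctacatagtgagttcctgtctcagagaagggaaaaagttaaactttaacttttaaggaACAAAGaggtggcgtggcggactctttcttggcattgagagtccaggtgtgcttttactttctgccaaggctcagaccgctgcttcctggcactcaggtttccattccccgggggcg
Mag: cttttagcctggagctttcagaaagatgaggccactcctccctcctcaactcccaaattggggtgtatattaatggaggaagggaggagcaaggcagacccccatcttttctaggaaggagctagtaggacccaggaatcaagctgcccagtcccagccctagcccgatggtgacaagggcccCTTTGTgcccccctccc
Prx: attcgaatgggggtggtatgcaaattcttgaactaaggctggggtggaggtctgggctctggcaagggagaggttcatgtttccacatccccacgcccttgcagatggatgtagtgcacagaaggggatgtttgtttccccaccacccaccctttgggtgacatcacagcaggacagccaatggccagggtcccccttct

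The core was sought in the 300-base windows (250 bases before to 50 after a start) of 5 members, Cnp, Mag, Pmp22, Prx and S100b. It was found in 2 of these, Cnp and Mag, while Mbp, Sox10 and Ncam1 were not searched. It was at 2 sites, 1 in each gene. The Mag site lies in a pair of overlapping windows, so that 3 of the 10 windows held the core, against 18.7% of all 32851 windows of the mouse annotation, with both strands searched. The EGR core GTGGGCG was in 0 of the 10 windows and in 7.97% of all windows. A match of this kind is a run of letters and no measurement of binding.

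The libraries held 38310034 to 42997271 reads with phytic acid and 31676934 to 37639476 with MC903 alone, as recovered from the deposited values. Keratinocyte markers, which define skin, summed to 5545 to 6702 FPKM with phytic acid and 7539 to 10556 FPKM with MC903 alone. FPKM is fragments per length of gene, scaled to the depth of the library, so levels can be set beside each other across genes. In order of mean level the members ran from Pmp22 (77.6 ± 13.9 with phytic acid and 54.3 ± 7.33 with MC903 alone, SD, n = 4 each) through Mbp, Cnp and Prx to S100b, Sox10, Ncam1 and Mag. S100b and Sox10, neighbours in that order, averaged 2.23 ± 0.750 and 1.55 ± 0.369 FPKM with phytic acid and 1.22 ± 0.493 and 1.21 ± 0.347 FPKM with MC903 alone, which lie within each other's spread in MC903 skin and within 1 SD of S100b with phytic acid. Ncam1 and Mag lay below the expression filter of 1 FPKM in at least 4 libraries and were not part of the test across genes. Mag rested on 45 to 92 reads a library with phytic acid and 14 to 49 with MC903 alone, against 4540 to 5164 and 2292 to 3244 reads for Mbp.

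With phytic acid, skin had more RNA of the myelin genes Cnp, Mbp, Pmp22 and Prx, by 1.43-fold to 1.79-fold in mean FPKM. These 4 of the 8 members were called higher and 0 were called lower, by limma at a Benjamini-Hochberg adjusted p under 0.05 on log2(FPKM + 1). The count was 2 with median-of-ratios scaling, 2 without phytic acid replicate 1 or without replicate 4 of that group, and 0 when values were centred on fibroblast markers. Of all 12165 genes tested, 14.2% were called higher and 11.6% lower, 25.8% in all. S100b and Sox10 were tested and not called, and S100b reached 1 FPKM in only 2 MC903 libraries, so that it entered the test through the phytic acid group. All 8 members had a higher mean FPKM with phytic acid, and 56.3% of all tested genes had a positive log2 fold change. The groups did not overlap for the 4 called members, against 14.3% of tested genes that were higher and 13.0% that were lower with no overlap. In a bulk sample, more Schwann cells, more RNA per Schwann cell and RNA from other cells that use some of these genes cannot be told apart.

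**Figure D1:**
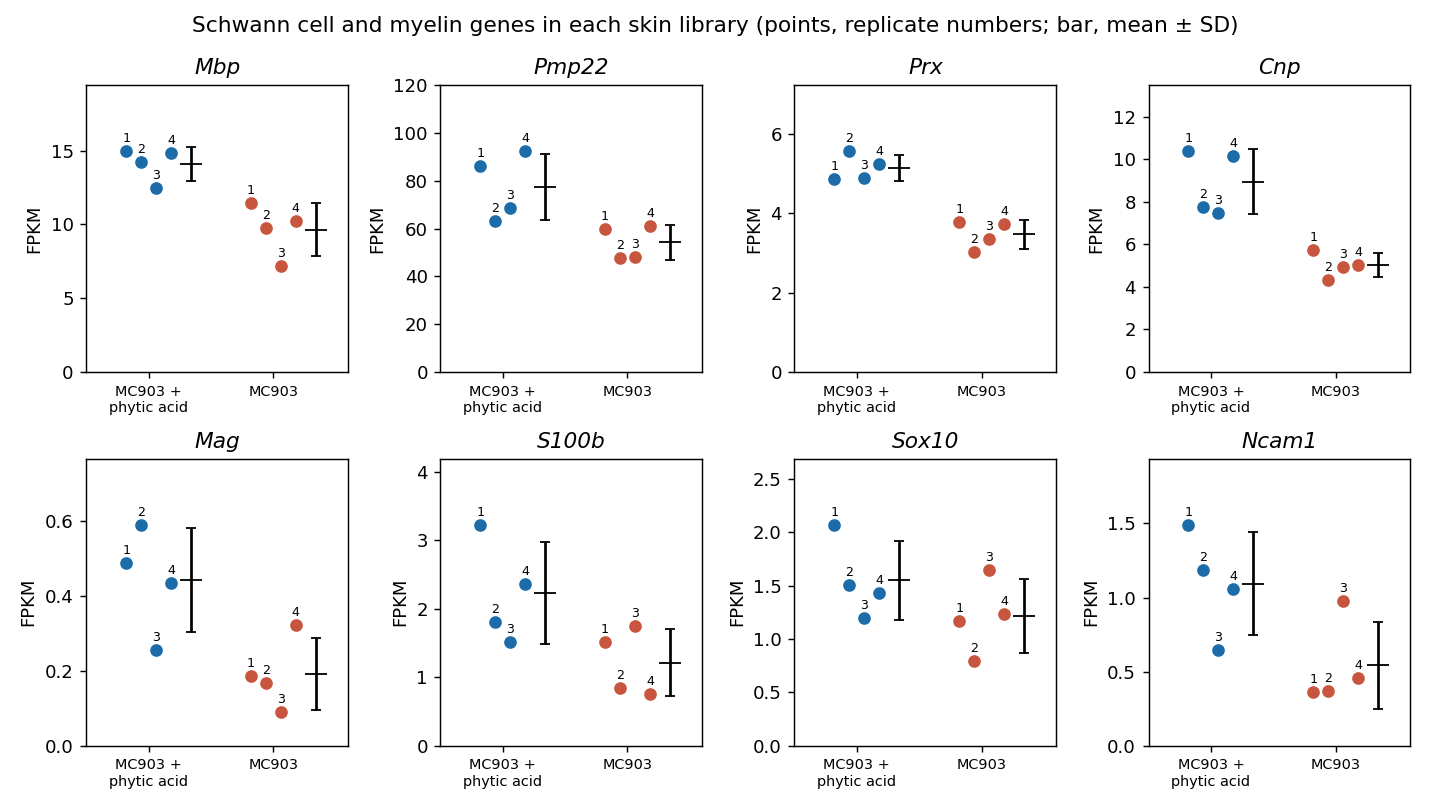
FPKM (vertical axes, each from 0) of the 8 members in each of the 8 libraries, with MC903 plus phytic acid on the left and MC903 on the right of each panel; points carry replicate numbers, and bars show the mean ± SD (n = 4). Mbp, Pmp22, Prx and Cnp do not overlap between the groups, while in Sox10, S100b and Ncam1 MC903 replicate 3 lies among the phytic acid libraries.

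Mbp encodes myelin basic protein, which zips together the inner faces of the myelin membrane. Its level was 15.0, 14.2, 12.5 and 14.8 FPKM in phytic acid replicates 1 to 4, and 11.4, 9.74, 7.19 and 10.2 FPKM in MC903 replicates 1 to 4. Every phytic acid library was above every MC903 library. The log2 fold change was 0.52 ± 0.13 (SE), with an adjusted p of 0.0193 by limma. Leaving out phytic acid replicate 1 gave an adjusted p of 0.0513, leaving out replicate 4 of that group gave 0.05004, and median-of-ratios scaling gave 0.0529, all just past the threshold. Mbp lies on chromosome 18 at 82475146 to 82585637 (GRCm38, plus strand), and its value sums the exons of all its transcripts, golli included. Markers of T cells were higher in the same libraries, at 7.81 to 18.3 FPKM summed over the 5 found with phytic acid against 2.58 to 5.40 with MC903 alone, and their part in the Mbp value was not tested.

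Pmp22 (chromosome 11, 63128982 to 63159547, plus strand) encodes a small membrane protein of compact peripheral myelin, whose human gene dosage causes Charcot-Marie-Tooth neuropathy. It stood at 86.0, 63.2, 68.7 and 92.4 FPKM in phytic acid replicates 1 to 4, and at 60.0, 47.6, 48.3 and 61.2 FPKM in MC903 replicates 1 to 4. The gap between the groups was small, with phytic acid replicate 2 just above MC903 replicate 4. The log2 fold change was 0.50 ± 0.15 (SE; adjusted p of 0.0340 by limma). It did not hold in 5 of the 8 fits that left out 1 library. Among phytic acid libraries, the adjusted p was 0.0867 when replicate 1 was dropped and 0.0824 when replicate 4 was. Among MC903 libraries it was 0.0526, 0.0911 and 0.0563 when replicates 1, 2 and 3 were dropped in turn. Testing with no expression filter gave 0.0533, and median-of-ratios scaling gave 0.0756. Fibroblasts and epithelia also make Pmp22, and their part in its value was not tested.

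Prx (chromosome 7, 27499324 to 27520214, plus strand) encodes periaxin, a scaffold that ties the Schwann cell membrane to the basal lamina. Its level was 4.86, 5.57, 4.90 and 5.24 FPKM in phytic acid replicates 1 to 4, and 3.79, 3.01, 3.36 and 3.74 FPKM in MC903 replicates 1 to 4. The replicates lay close together, and Prx was the least variable member within the phytic acid group (coefficient of variation 6.39%). The log2 fold change was 0.46 ± 0.10 (SE), with an adjusted p of 0.00852 by limma, and leaving out any 1 library kept the call. Centred on fibroblast markers, the value turned to -0.12 ± 0.34 (SE) and was not called. Prx shares 5.38% of its exon length with an antisense gene on the opposite strand, whose reads cannot be told apart here because no source used here gives the strand setting.

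Cnp (chromosome 11, 100574904 to 100591729, plus strand) encodes the cyclic nucleotide phosphodiesterase that keeps open the cytoplasmic channels of myelin, and it is also made at low levels by many other cells. Its level was 10.4, 7.76, 7.48 and 10.2 FPKM in phytic acid replicates 1 to 4, and 5.73, 4.34, 4.94 and 5.04 FPKM in MC903 replicates 1 to 4. The log2 fold change was 0.72 ± 0.13 (SE; adjusted p of 0.00416 by limma). Its call held when any 1 library was left out. It was lost when values were centred on fibroblast markers (0.14 ± 0.35), where the SE was also wider. It shares 4.23% of its exon length with Dnajc7 on the opposite strand.

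Mag (chromosome 7, 30899176 to 30914873, minus strand) encodes myelin-associated glycoprotein, the adhesion protein of the membrane that faces the axon. It was at 0.488, 0.590, 0.257 and 0.434 FPKM in phytic acid replicates 1 to 4, and at 0.186, 0.169, 0.0913 and 0.322 FPKM in MC903 replicates 1 to 4. The means differed 2.30-fold, and MC903 replicate 4 lay above phytic acid replicate 3. The exact two-sided permutation test of log2(FPKM + 1) gave p = 0.0571, where 4 against 4 libraries allow no p below 0.0286. With no expression filter, limma gave Mag an adjusted p of 0.0577, in a fit that called 8.99% of genes higher and 7.49% lower.

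Mag is also a marker of oligodendrocytes, the myelinating glia of brain and spinal cord, which skin does not hold. Of 6 oligodendrocyte markers, Opalin and Olig2 were at 0 in all 8 libraries, and the 6 together summed to 0.338 to 0.676 FPKM with phytic acid and 0.111 to 0.345 FPKM with MC903 alone, Mag included. Mog, a myelin gene of oligodendrocytes, averaged 0.0325 ± 0.0297 FPKM with phytic acid and 0.00916 ± 0.0183 FPKM with MC903 alone (SD, n = 4 each).

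Sox10 (chromosome 15, 79154908 to 79165240, minus strand) was at 2.07, 1.51, 1.20 and 1.43 FPKM in phytic acid replicates 1 to 4, and at 1.17, 0.798, 1.65 and 1.24 FPKM in MC903 replicates 1 to 4. The groups overlapped, with MC903 replicate 3 above all phytic acid libraries but replicate 1. Its log2 fold change was 0.21 ± 0.15 (SE), which limma did not call (adjusted p of 0.332; exact permutation p = 0.257). The same MC903 replicate 3 stood apart in the sum of melanocyte genes. The 8 melanocyte markers summed to 147 FPKM there, against 15.3 to 18.9 FPKM in the other MC903 libraries and 16.2 to 18.3 FPKM with phytic acid. Tyrp1, a pigment enzyme gene, was at 39.9 FPKM there against at most 2.58 FPKM in any other library. Mitf, the marker of highest mean, did not stand apart, at 12.8 FPKM there and 12.2 FPKM in MC903 replicate 1. The part of melanocytes in the Sox10 value was not tested. Without MC903 replicate 3 the log2 fold change of Sox10 was 0.30 ± 0.14 (SE; adjusted p of 0.137), still not called, while 19.9% of genes were called higher and 12.8% lower in that fit.

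S100b (chromosome 10, 76253853 to 76261159, plus strand) encodes a calcium-binding protein that is used to stain Schwann cells. It was at 3.22, 1.81, 1.52 and 2.36 FPKM in phytic acid replicates 1 to 4, and at 1.51, 0.841, 1.75 and 0.757 FPKM in MC903 replicates 1 to 4. The groups overlapped through MC903 replicate 3, which was above phytic acid replicate 3. The log2 fold change was 0.54 ± 0.20 (SE; adjusted p of 0.0739 by limma). It passed without MC903 replicate 3 (0.66 ± 0.20, SE; adjusted p of 0.0326) and when replicate 3 of the phytic acid group was dropped (0.65 ± 0.20, adjusted p of 0.0493). Dropping any other library gave no call.

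Fat and cartilage, which also express S100b, were measured in the same libraries. Of 7 tested adipocyte markers, 2 rose and 0 fell, and the 8 markers summed to 572 to 1007 FPKM with phytic acid and 222 to 526 FPKM with MC903 alone. The 2 most abundant markers differed from each other. Cfd, the adipsin gene, was at 628, 457, 374 and 669 FPKM in phytic acid replicates 1 to 4, and at 100.3, 134, 326 and 130.5 FPKM in MC903 replicates 1 to 4 (log2 fold change 1.74 ± 0.34, SE; adjusted p of 0.00678 by limma). Fabp4, the fatty acid carrier gene of fat cells, was at 122, 57.3, 73.8 and 98.4 FPKM in phytic acid replicates 1 to 4, and at 59.4, 93.8, 56.1 and 59.4 FPKM in MC903 replicates 1 to 4. The groups were apart in Cfd and overlapped in Fabp4 (adjusted p of 0.309). Adipoq, the adiponectin gene, was the other marker that rose, and the groups overlapped in every adipocyte marker but Cfd and Adipoq. Of those named after their values were seen, Plin1, Cidec, Pparg and Plin4 were not called, Plin4 having the lower mean with phytic acid (28.0 against 32.6 FPKM with MC903 alone). The part of fat in the S100b value was not tested. Among 9 cartilage markers, 7 stayed under 1 FPKM in all libraries, the cartilage collagen gene Col2a1 among them.

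**Figure D2:**
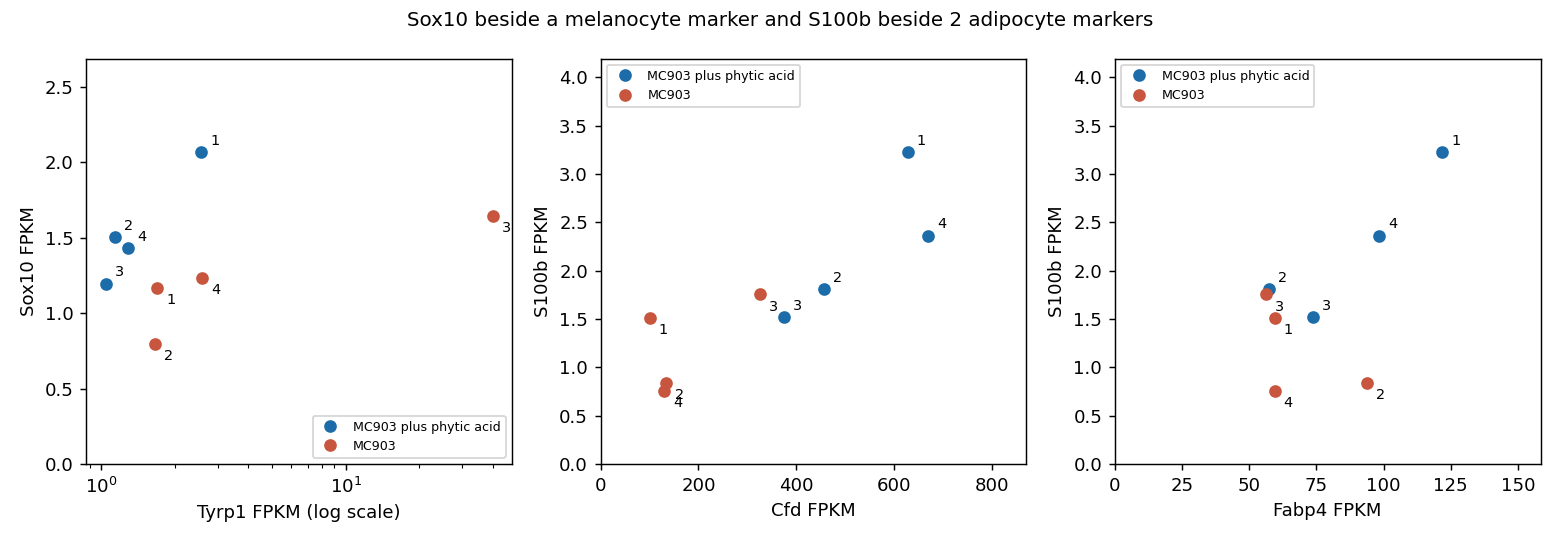
Sox10 FPKM against Tyrp1 FPKM (left) and S100b FPKM against Cfd FPKM (middle) and Fabp4 FPKM (right), with 1 point per library marked by its replicate number; the Tyrp1 axis is a log scale and the other axes start at 0. MC903 replicate 3 lies far to the right in Tyrp1, at 39.9 FPKM. Of the MC903 libraries, replicate 3 has the most S100b (1.75 FPKM) and the most Cfd (326 FPKM). Replicate 2 of that group has the most Fabp4 (93.8 FPKM), with 0.841 FPKM of S100b. Of the phytic acid libraries, replicate 1 has the most S100b (3.22 FPKM) and the most Fabp4 (122 FPKM), and replicate 4 the most Cfd (669 FPKM). The part of fat in S100b was not tested.

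Ncam1 (chromosome 9, 49502136 to 49798925, minus strand) encodes the neural cell adhesion molecule, which non-myelinating Schwann cells keep and myelinating ones lose. It was at 1.49, 1.18, 0.647 and 1.06 FPKM in phytic acid replicates 1 to 4, and at 0.361, 0.371, 0.978 and 0.460 FPKM in MC903 replicates 1 to 4. All but 1 library of MC903 lay below all libraries of phytic acid, the exception being replicate 3. The means differed 2.02-fold, with an exact two-sided permutation p of 0.0571 and, with no expression filter, an adjusted p of 0.0989 by limma. Ncam1 shares 4.81% of its exon length with an antisense gene.

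Markers of muscle, which uses Ncam1, and of natural killer cells, which use it in humans, were measured in the same libraries. Of 9 skeletal muscle markers 8 rose (4 with no expression filter) and 0 fell, at 8586 to 9703 FPKM summed with phytic acid against 4090 to 4776 FPKM with MC903 alone. Of 3 tested markers of denervated or regenerating muscle, which holds much Ncam1, the differentiation factor Myog (log2 fold change 1.19 ± 0.28, SE) and the perinatal myosin gene Myh8 (0.40 ± 0.11) rose. Musk, the kinase gene of the nerve-muscle synapse and the other tested marker, was not called (0.07, adjusted p of 0.773 by limma), and the acetylcholine receptor gene Chrna1 averaged 0.884 FPKM with phytic acid and 0.883 FPKM with MC903 alone. Myh8 was under 1 FPKM in every MC903 library and Myog in MC903 replicates 2 and 4. These genes thus entered the test through the phytic acid group. Both tested natural killer markers, Klrd1 and Klrk1, rose, although Ncr1, the receptor gene that defines those cells, stayed at 0.166 to 0.590 FPKM with phytic acid and at 0 to 0.362 FPKM with MC903 alone. Klrk1 was at most 0.692 FPKM in the MC903 libraries, so that it too entered the test through the phytic acid group. What muscle contributes to Ncam1, and whether natural killer cells of the mouse contribute at all, was not tested.

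Divided by Sox10 of the same library, the members showed no clean separation. The ratio of Mbp to Sox10 was 7.24 to 10.4 with phytic acid and 4.37 to 12.2 with MC903 alone, and that of Cnp to Sox10 was 5.02 to 7.10 with phytic acid and 2.999 to 5.44 with MC903 alone. Pmp22, Prx, Mag, S100b and Ncam1 overlapped in the same way. MC903 replicate 3, the MC903 library with the most Sox10, had the lowest ratios for Mbp, Pmp22, Prx, Mag and Cnp.

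Of 90 other genes of Schwann cells and nerve, in 7 lists by role, 50 passed the filter, 12 rose, 8 fell and 30 were not called. Their median log2 fold change was 0.15, that of all tested genes 0.05, and that of the 6 tested members 0.51. The lists were chosen with earlier results of these data known, and shares of 24.0% higher and 16.0% lower stand beside 14.2% and 11.6% of all genes.

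Of 6 tested genes of the list of myelin proteins, 3 rose and 2 fell, and the 2 that fell were Gjb1 and Mpzl2. Among those that rose, named because the count is small, were Mal, a lipid raft protein gene of myelin and epithelia (log2 fold change 0.51 ± 0.16, SE; adjusted p of 0.0398 by limma), and Cldn19, a claudin gene of the myelin edge (0.35 ± 0.11; adjusted p of 0.0393). Cldn19 was under 1 FPKM in every MC903 library (at most 0.948 FPKM), so that it entered the test through the phytic acid group. Cldn19 lost its call on dropping any 1 library (0.0519 to 0.0967) and with quantile normalization (0.133). Mal lost it on dropping phytic acid replicate 1, 2 or 4 or MC903 replicate 2 or 4 (0.0591 to 0.0999), with no filter (0.0727), quantile normalization (0.0908) and median-of-ratios scaling (0.0792). Gjb1, the connexin gene of myelin that liver and other epithelia also use, averaged 0.470 ± 0.109 FPKM with phytic acid and 2.08 ± 0.440 FPKM with MC903 alone (SD, n = 4 each; log2 fold change -1.06 ± 0.12, SE). All phytic acid libraries were under 1 FPKM in Gjb1, so that it entered the test through the MC903 group. Mpzl2, an adhesion protein gene of epithelia, averaged 2.43 ± 0.376 FPKM with phytic acid and 4.94 ± 0.681 FPKM with MC903 alone.

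In the list of Schwann lineage and non-myelinating genes, 3 of 9 tested rose and 0 fell. Among these were Cdh19, a cadherin gene of the lineage, at 5.43 ± 0.803 FPKM with phytic acid and 3.17 ± 0.520 FPKM with MC903 alone (SD, n = 4 each), and Kcna1, a potassium channel gene of axons and Schwann cells, at 2.82 ± 0.551 FPKM with phytic acid and 1.61 ± 0.124 FPKM with MC903 alone. Scn7a, a sodium channel gene of non-myelinating Schwann cells that was named after its values were seen, had a log2 fold change of 0.26 ± 0.15 (SE; adjusted p of 0.227) and overlapped between the groups. It passed when MC903 replicate 1 was dropped (0.40, adjusted p of 0.0443).

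Of 12 tested genes of adhesion, nodes and basal lamina, 2 rose and 0 fell. Cadm3, which encodes the axonal partner of a Schwann cell adhesion protein, was at 11.3, 11.1, 9.30 and 10.8 FPKM in phytic acid replicates 1 to 4, and at 4.74, 6.24, 5.18 and 5.97 FPKM in MC903 replicates 1 to 4. The groups were well apart (log2 fold change 0.83 ± 0.11, SE; adjusted p of 0.000964 by limma). Lgi4, a secreted protein gene that Schwann cells need to start myelination, had a log2 fold change of 0.43 ± 0.13 (SE; adjusted p of 0.0378). Its call was lost on dropping phytic acid replicate 1 or 2 or MC903 replicate 1, 2 or 4 (adjusted p of 0.0766 to 0.0946), with TPM scaling (0.0562) and with no filter (0.0563).

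Of 11 tested transcription factors of the lineage, 1 rose and 2 fell. Egr2, the factor that drives myelination in Schwann cells and is also induced in immune cells and hair follicle, was at 28.0, 30.2, 28.4 and 25.6 FPKM in phytic acid replicates 1 to 4, and at 13.9, 14.0, 25.02 and 13.1 FPKM in MC903 replicates 1 to 4. Again MC903 replicate 3 lay next to the phytic acid libraries (log2 fold change 0.78 ± 0.18, SE; adjusted p of 0.0142). Pou3f1, the factor of promyelinating Schwann cells that keratinocytes also make, averaged 8.41 ± 1.14 FPKM with phytic acid and 11.4 ± 1.39 FPKM with MC903 alone (SD, n = 4 each; log2 fold change -0.40 ± 0.12, SE; adjusted p of 0.0342). Tfap2a, a factor of the neural crest and of epidermis, fell by 0.52 on the log2 scale (adjusted p of 0.0463). Either phytic acid replicate 3 or 4, or MC903 replicate 1, 3 or 4, ended both calls when dropped, and so did phytic acid replicate 1 for Tfap2a. The adjusted p was then 0.0545 to 0.0866 for Pou3f1 and 0.0677 to 0.114 for Tfap2a. TPM scaling also ended both calls (0.0987 for Pou3f1 and 0.102 for Tfap2a), and no filter ended that of Tfap2a (0.0769).

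Of 8 tested ligands and receptors, 3 rose and 1 fell. Ngfr, the low-affinity neurotrophin receptor gene of immature and non-myelinating Schwann cells, was at 2.02, 1.67, 1.90 and 1.57 FPKM in phytic acid replicates 1 to 4, and at 0.403, 0.462, 1.40 and 0.380 FPKM in MC903 replicates 1 to 4 (log2 fold change 0.79 ± 0.18, SE; adjusted p of 0.0124). MC903 replicate 3 again lay near the phytic acid libraries. No other MC903 library reached 1 FPKM in Ngfr, which entered the test through the phytic acid group. Lpar1, a lysophosphatidic acid receptor gene of Schwann cells and fibroblasts, also passed (log2 fold change 0.38 ± 0.12, SE; adjusted p of 0.0382 by limma), although its groups overlapped. Its call was lost on dropping any phytic acid library but replicate 3 or any MC903 library but replicate 1 (0.0586 to 0.0978), with no filter (0.0540), library weights (0.0509) and median-of-ratios scaling (0.0638). The growth factor gene Igf1 averaged 11.3 ± 3.10 FPKM with phytic acid and 5.85 ± 0.304 FPKM with MC903 alone. Nrg1 and Artn, named after their values were seen, lay below the filter and are not among the 8 tested. They averaged 0.0946 and 0.144 FPKM with phytic acid and 1.17 and 1.004 FPKM with MC903 alone, with no overlap. Without the filter, limma called both lower (adjusted p of 0.0301 for Nrg1 and 0.00272 for Artn). Of the others below it, Ret had the lower mean with phytic acid and Gdnf, Bdnf and Gfra3 the higher, and none was called.

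Of 5 tested genes of myelin lipid synthesis, 1 rose and 2 fell. Gal3st1, the sulfotransferase gene that makes the myelin lipid sulfatide, averaged 4.74 ± 1.03 FPKM with phytic acid and 1.84 ± 0.285 FPKM with MC903 alone (SD, n = 4 each). Fa2h, a fatty acid hydroxylase of myelin and epidermis, had a log2 fold change of -0.71 ± 0.21 (SE; adjusted p of 0.0365), and lost its call on dropping phytic acid replicate 3 or 4 or any MC903 library (adjusted p of 0.0523 to 0.0885). It also lost it with TPM scaling (0.0627), quantile normalization (0.0641) and no filter (0.0666).

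The cell bodies of the sensory neurons that serve skin lie in ganglia outside it. Of 16 genes of axons and sensory neurons, 14 were under 1 FPKM in all libraries, and Scn10a was at 0 throughout. The 1 tested gene was Tubb3, a tubulin gene used as a neuron marker that cells other than neurons can also make. It averaged 2.13 ± 0.825 FPKM with phytic acid and 42.4 ± 14.5 FPKM with MC903 alone (SD, n = 4 each), a log2 fold change of -3.76 ± 0.28 (SE; adjusted p of 0.000143 by limma). The neurofilament genes Nefl, Nefm and Nefh, named after their values were seen, stood at no more than 0.0860 FPKM in any library.

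**Figure D3:**
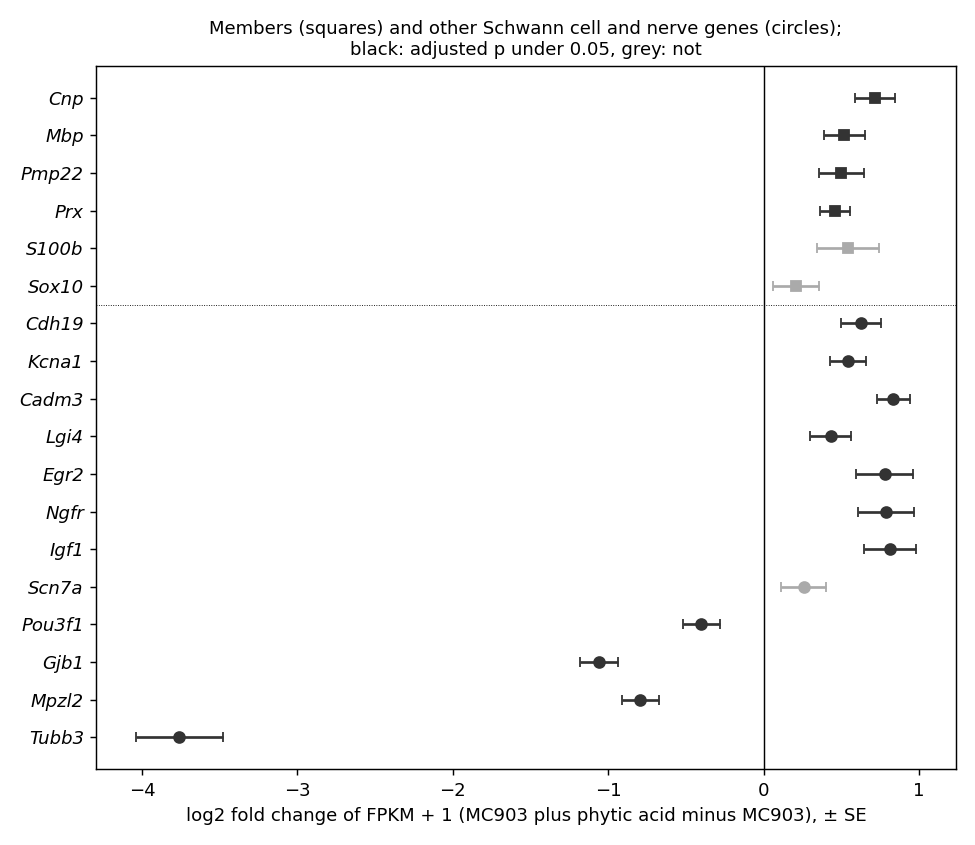
Log2 fold change of FPKM + 1 (MC903 plus phytic acid minus MC903; horizontal axis, ± SE from the limma fit, 4 libraries a group) of the 6 tested members (squares) and 12 other Schwann cell and nerve genes (circles), black where the adjusted p was under 0.05 and grey where not. Members lie between 0.21 and 0.72, and Tubb3 lies at -3.76.

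Among markers of other cells of the skin, 1 of 6 fibroblast markers rose and 0 fell. Their log2 fold changes had a median of 0.58, and they summed to 456 to 876 FPKM with phytic acid and 378 to 439 FPKM with MC903 alone. Dcn, the decorin gene and the marker that rose, averaged 350.0 ± 59.2 FPKM with phytic acid and 228 ± 29.4 FPKM with MC903 alone (SD, n = 4 each). It was the largest part of the sum in every library, and the groups overlapped in each of the other fibroblast markers. Pdgfra, a receptor gene of fibroblasts named after its values were seen, had a log2 fold change of 0.0036 (adjusted p of 0.988 by limma). Endothelial markers had a median log2 fold change of 0.07 with 0 of 6 called, keratinocyte markers one of -0.18 with Krt10 higher and Krt14 lower of 6, and macrophage markers one of 0.35 with 3 of 6 higher. When log2 values were centred on the fibroblast markers, an alternative chosen after seeing the data, 0 of the 6 tested members were called, and their log2 fold changes were 0.14 for Cnp, -0.06 for Mbp, -0.08 for Pmp22, -0.12 for Prx, -0.04 for S100b and -0.37 for Sox10. Their SEs were wider with that centring, at 0.325 to 0.410 against 0.0960 to 0.200 without it. That centring moved the median of all genes to -0.53 and called 125 genes higher (1.03%) and 1432 lower (11.8%), against 1722 higher and 1412 lower as deposited and 1469 higher and 1834 lower with median-of-ratios scaling.

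**Figure D4:**
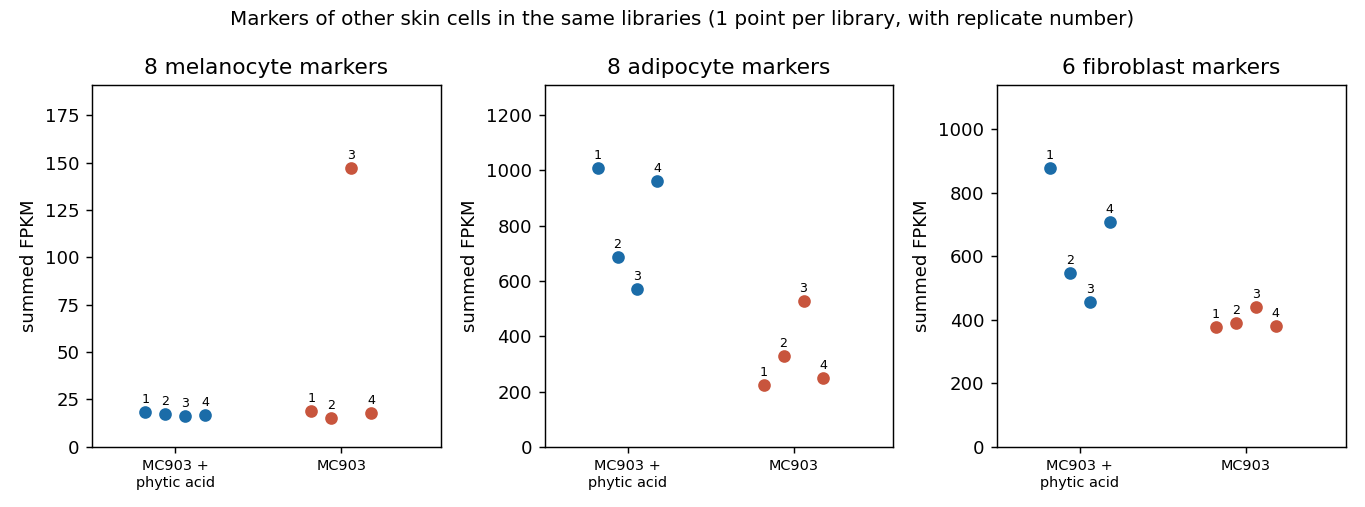
Summed FPKM (vertical axes, each from 0) of melanocyte, adipocyte and fibroblast markers in each library, MC903 plus phytic acid on the left and MC903 on the right, with points marked by replicate number. MC903 replicate 3 stands at 147 FPKM in melanocyte markers, and every phytic acid library lies above every MC903 library in the adipocyte and fibroblast sums. Cfd was the largest part of the adipocyte sum in every library, and Dcn of the fibroblast sum. Taken 1 by 1, the groups overlapped in every adipocyte marker but Cfd and Adipoq and in every fibroblast marker but Dcn.

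The genes nearest to the mean profile of the 6 tested members over the 8 libraries were Cep170, Klc4, Enpp4, Hoxd8 and Camk1. Nearness was the root mean square difference of centred log2(FPKM + 1), which was 0.0450 for Cep170 and 0.0754 for Camk1, against 0.122 to 0.198 for the members themselves and a median of 0.317 over all tested genes. With values centred within each group, which leaves out the difference between groups, the nearest were Prrg1, Dnaja3, Bzw2, Ubac1 and Cep170, at 0.0379 to 0.0446. The members then lay at 0.0456 (Cnp) to 0.196 (S100b), against a median of 0.186 over all tested genes. Dnaja3 (log2 fold change -0.47) and Bzw2 (-0.40) were called lower with phytic acid and Cep170 higher, while Prrg1 and Ubac1 were not called.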

How the data were processed

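Levels are FPKM values, 1 for each gene in each library, as the authors deposited them. Cutadapt, HISAT2, TopHat2, DESeq and the build mm10 appear in the submitters' processing notes without versions or roles; the labels' protocols give TRIzol extraction and a SMARTER mRNA kit. No source used here names the counter, the annotation or the strand setting. The 51 rows with no gene name (0.0160% to 0.0238% of a library's summed values) were dropped, and the highest row was kept for 21 repeated names. Exon lengths from GENCODE M21 turned 97.4% of 17980 genes into whole reads (within 0.05), which gave the library totals. Values were tested as log2(FPKM + 1), which understates changes of low genes, with limma 3.58.1 in R 4.3.3 (eBayes with trend), for genes of at least 1 FPKM in at least 4 libraries; tests were two-sided. Log2 fold changes are MC903 plus phytic acid minus MC903.

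The procedure was tested on simulated data. Members and lists were chosen with earlier results of these data known. Named were all members, up to 3 called genes of smallest p per list of Schwann cell and nerve genes, the 2 most abundant genes of each other list and the 5 nearest genes, with exceptions stated. Markers of other cells are summarised mainly by list, and not all 2 per list are printed. Alternatives were pseudocounts of 0.1 and 0.01, testing all genes, a minimum mean FPKM of 5, TPM, median-of-ratios and quantile scaling, library weights, eBayes without trend or robust, a replicate block, each library left out and, chosen later, voom on recovered reads and centring on 6 fibroblast markers. Same-numbered libraries did not deviate together (correlations -0.286 to 0.225), so replicate numbers were not taken as pairs. A few genes of the lists enter the counts and are not reported here by name.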

Additional observations from a re-analysis of the deposited data

Results flagged for a closer look

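In groups of 4 libraries, a value was singled out where its distance to the nearest other library exceeded Dixon's 95% critical share of the group's range, which chance gives in about 1 of 20 groups. Among 92 sets of 4 values for members and genes of the lists named by rule, with Mag counted under both, 9 were found. In MC903 replicate 3, Ncam1 (0.978 FPKM), Egr2 (25.02 FPKM), Ngfr (1.40 FPKM), Tyrp1 (39.9 FPKM) and Cfd (326 FPKM) lay far above the other MC903 libraries. In MC903 replicate 2, Fabp4 (93.8 FPKM) and Mog (0.0366 FPKM, where the others were at 0) did. Among the phytic acid libraries, Tyrp1 in replicate 1 (2.56 FPKM) and Mrc1 in replicate 4 (111 FPKM) stood above the rest.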

How the results depend on the processing

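Centred on fibroblast markers, the log2 fold changes of Mbp (-0.060), Pmp22 (-0.079), Prx (-0.12), S100b (-0.037), Sox10 (-0.37), Lgi4 (-0.15), Kcna1 (-0.039), Scn7a (-0.32), Mal (-0.070), Cldn19 (-0.23) and Lpar1 (-0.20) turned sign and Cnp (0.14) lost its call. That setting also widened the SEs of the tested members, and left 0 members, 0 genes of the Schwann cell and nerve lists and 125 of all genes called higher. With library weights, 2865 genes were called higher and S100b passed (0.51). Median-of-ratios scaling ended the calls of Mbp (0.44) and Pmp22 (0.42), leaving 2 members, and no filter ended that of Pmp22 (0.50, unchanged in size). A mean FPKM of at least 5 gave 1098 genes higher, with 5 list genes higher and 5 lower, since fewer were tested. With the replicate number as a block, 1098 genes were called higher and Prx lost its call (0.46, adjusted p of 0.0515), as did Lgi4 (0.106), Pou3f1 (0.0992), Tfap2a (0.117), Cldn19 (0.113) and Lpar1 (0.0632). Leaving out 1 library gave 0.40 to 0.60 for Mbp, 0.41 to 0.59 for Pmp22, 0.40 to 0.66 for S100b, 2 to 5 members called higher, 1072 to 2418 genes higher and 941 to 1561 lower (both lowest without MC903 replicate 1), 8 to 12 list genes higher and 4 to 7 lower. Of the other genes' values, 295 kept direction and side of the threshold, 67 lost the call, 1 gained it and 6 turned sign. Scn7a was the one that gained it. Where no cause is given, it was not tested. S100b, Sox10 and Prx have no value at a mean FPKM of at least 5, and Prx none on recovered reads. Depth limits Mag most, at 14 to 92 reads a library; intervals were not computed because recovered reads most often came in steps of 2.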
